A study of Mus musculus with 388 samples.

Results

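The cells described are bone marrow stromal cells that express the leptin receptor gene Lepr, compared at the upper and lower ends of an adipogenic score. Lepr-expressing stroma surrounds the marrow sinusoids, supplies the chemokine CXCL12 and stem cell factor to haematopoietic stem cells, and holds the precursors of marrow adipocytes. In these precursors the nuclear receptor PPARγ (Pparg) and the transcription factor C/EBPα (Cebpa) drive one another and switch on the fat cell program, whose products include the hormone adiponectin (Adipoq) and the secreted enzyme lipoprotein lipase (Lpl). All cells came from 2-month-old C57BL/6 mice with the alleles KitMerCreMer and R26tdTomato, in which tamoxifen activates a Cre recombinase made by Kit-expressing cells and so switches on a lasting red label. Tamoxifen was given at E12.5 and E14.5 (days of embryonic life), and sorted cells were PDGFRα+ and negative for CD45, Ter119 and CD31, the surface markers of blood, erythroid and endothelial cells. The series holds 388 single cells, sorted as Tomato+ or Tomato−, whose titles give 2 orders and within them numbered sets; no animal is named for any cell.

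Members were chosen by their expression. Order 2 holds 71 and 70 Tomato− cells in its sets N1 and N2 and 24 Tomato+ cells in each of P1 and P2. Of these, 69, 56, 24 and 23 cells held at least 10000 counts and at least 1000 CPM of Lepr (counts scaled to the same total in every cell), 91.01% of order 2, and the other 17 fell short on Lepr. The highest Lepr level left out was 777 CPM and the lowest kept was 1065 CPM. Each cell's score was the mean of log2(CPM + 1) of Adipoq, Lpl, Pparg and Cebpa. The 57 cells with the highest scores (the high tertile) were set against the 57 with the lowest (the low tertile), with 58 cells between them. Scores ran from 3.90 to 6.60 in the low tertile, from 6.71 to 7.82 in the middle and from 7.82 to 9.91 in the high tertile, so the cuts fall in a continuous range: 18 cells lay within 0.25 of the lower cut and 21 within 0.25 of the upper. Since the animals are not named, each tertile counts as 1 sample. No test was made, cells are not used as replicates, and differences are described by their size and by whether they recur in the 4 title sets.

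Depth per cell ran from 19881 to 1437645 counts among the members of the 3 groups. The median was 696808 counts in the high tertile and 583792 in the low tertile, and the median number of genes with a count was 4706 and 4442. The rank correlation of the score with the total count over all Lepr+ cells of order 2 was 0.22, as a description. Median mitochondrial shares were 0.695% and 0.717% of counts. Each set gave cells to both tertiles. In the high tertile stood 19 of 69 N1 cells (27.5%, exact Clopper-Pearson 95% interval 17.5 to 39.6%), 23 of 56 N2 cells (41.1%, 28.1 to 55.02%), 6 of 24 P1 cells (25%, 9.77 to 46.7%) and 9 of 23 P2 cells (39.1%, 19.7 to 61.5%). By label, 15 of 47 Tomato+ cells (31.9%) and 42 Tomato− cells (33.6%) were in the high tertile, and 16 and 41 in the low tertile. Tomato+ and Tomato− cells were thus spread over the tertiles in nearly equal shares, while the sets ran from 25% to 41.1% in the high tertile. The intervals describe the counting of cells only and do not cover differences between animals.

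The score was in practice a split on Pparg and Cebpa. Adiponectin and lipoprotein lipase mRNA were present in every Lepr+ cell of order 2: Adipoq (chromosome 16, 23146536 to 23158028, GRCm38) ran from 439 to 11552 CPM with a median of 3274, and Lpl (chromosome 8, 68880491 to 68907448) from 16.4 to 8576 CPM with a median of 1837. The factors were patchy: Pparg (chromosome 6, 115360951 to 115490399) had a count in 77.3% of the cells, with a median of 38.6 CPM, and Cebpa (chromosome 7, 35119293 to 35121928) in 84 cells (48.8%), with a median of 0. These 4 genes chose the tertiles, so their values in them are a description only. Pparg made up 55.6% and Cebpa 37.3% of the difference in mean score between the tertiles, Adipoq 3.61% and Lpl 3.45%.

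In the high tertile Adipoq ran from 439 to 11552 CPM with a median of 3774, and in the low tertile from 494 to 7567 CPM with a median of 2814. Lpl ran from 221 to 8576 CPM (median 2219) in the high tertile and from 16.4 to 5042 CPM (median 2012) in the low. For both products the ranges of the tertiles overlapped almost wholly. Pparg ran from 0 to 1643 CPM (median 187.4) in the high tertile and from 0 to 41.5 CPM (median 0.955) in the low, and Cebpa from 0 to 402 CPM (median 54.6) and from 0 to 105.1 CPM (median 0). At 5 or more counts, Pparg was found in 52 of 57 high cells and 0 of 57 low cells, and Cebpa in 42 and 2. Counts of both factors were found in 46 high cells, of Pparg alone in 10, of Cebpa alone in 1 and of neither in 0; in the low tertile these numbers were 5, 25, 6 and 21. Because these genes chose the tertiles, no interval is given for these numbers of cells. Reads were counted after amplification and carry no molecular identifiers.

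**Figure D1:**
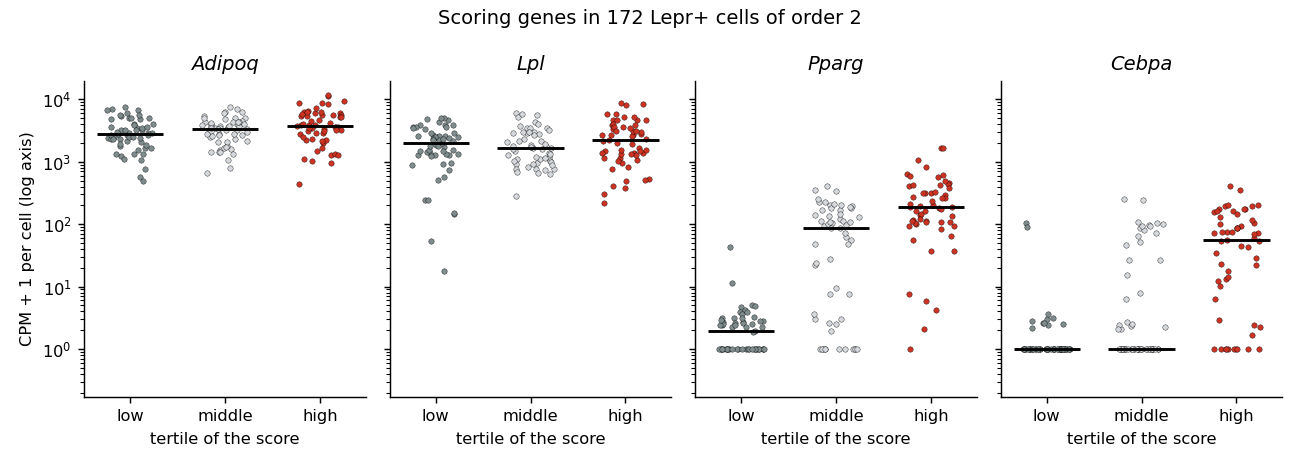
Each point is 1 Lepr+ cell of order 2, placed by the tertile of the score (x axis) and the level of Adipoq, Lpl, Pparg or Cebpa as CPM + 1 on a log axis (y axis); horizontal bars are medians. Adipoq and Lpl overlap between tertiles, while Pparg (medians 187.4 and 0.955 CPM, high and low) and Cebpa (54.6 and 0 CPM) separate them.

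Since depth bears on which cells give a count of Pparg or Cebpa, the scoring genes were also described at equal depth. After each cell was thinned to 150000 counts, which left out 3 low cells, Pparg had a count in 55 of 57 high and 4 of 54 low cells (56 and 29 in the same cells unthinned), and Cebpa in 41 of 57 and 4 of 54 (47 and 11 unthinned). With tertiles drawn again on the thinned counts, 52 of the 55 cells of the new high tertile had been in the high tertile before and no cell crossed from one tertile to the other. These values use the genes that chose the tertiles, and the part of depth in the split was not tested.

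Pooled over the sets, the 4 genes carried little information on one another in these cells. When each was left out of the score and all Lepr+ cells of order 2 were divided by the other 3, Adipoq stood at 4113 CPM in the high and 3184 CPM in the low tertile, a log2 ratio of 0.37; the ratio was −0.26 in N1, 0.95 in N2, −0.61 in P1 and 0.94 in P2. Lpl gave a log2 ratio of 0.10, Pparg 0.50 and Cebpa 0.46, each computed on the summed counts as log2 of the ratio of CPM + 1. By set, Lpl ran from −0.48 to 0.49 and Pparg from −0.25 to 1.77. Cebpa, for which P1 could not be used, ran from 0.24 to 4.62. Spearman correlations among the 4 genes over these cells lay between −0.04 and 0.15 and share each cell's library and depth. Within single sets they ran from −0.29 (Adipoq with Cebpa in P1) to 0.62 (the same pair in P2). The Lepr+ cells of order 1, which had no part in choosing the members, gave larger values for all 4: 0.48 for Adipoq, 0.73 for Lpl, 1.24 for Pparg and 0.91 for Cebpa, each split by the other 3. There Adipoq and Lpl were above 0 in each of the 3 sets that could be used (N2, P1 and P3), Pparg was likewise, and Cebpa was at −0.54 in P3. The rank correlation of Adipoq with Lpl was 0.35 in order 1 against 0.07 in order 2.

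The cells at both ends remained Lepr+ niche stroma by their markers. Lepr itself (chromosome 4, 101717404 to 101815352), used for selection but not for the score, ran from 1065 to 12048 CPM (median 4544) in the high tertile and from 1087 to 13098 CPM (median 4421) in the low. Cxcl12 ran from 33308 to 77541 CPM (median 52734) in the high and from 26561 to 90479 CPM (median 55877) in the low tertile. Kitl, which encodes stem cell factor, had medians of 1483 and 1469 CPM, and Vcam1, an adhesion molecule for blood cells, 5402 and 5325 CPM. These ranges overlap throughout, and the summed log2 ratios were 0.04 for Lepr, −0.06 for Cxcl12, −0.18 for Kitl and −0.13 for Vcam1. Over the whole list of Lepr+ stroma identity genes, 28 of 28 in the table were abundant enough to be compared, with a median log2 ratio of −0.02. By the rule given below 0 were called in either direction, against 3.47% higher and 4.09% lower among all genes compared.

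The name adipogenic-high is not matched by mature adipocyte mRNA. The lipid droplet coat gene Plin1, the droplet fusion gene Cidec and the adipokine gene Retn had no count in any cell of either tertile. Fabp4, a fatty acid carrier induced early in adipogenesis, had a count in 16 high and 11 low cells. Its summed level was 13.03 CPM against 1.85 CPM; 1 cell held 36.6% of the high tertile's Fabp4 counts, and the log2 ratio was −1.96 in N1 but 2.801, 0.92 and 4.04 in N2, P1 and P2. The fatty acid translocase gene Cd36 had a count in 2 high cells and 1 low cell. Summed over the 6 mature adipocyte markers (Plin1, Cidec, Cfd, Retn, Fabp4 and Adrb3), cells ran from 0 to 713 CPM in the high tertile and from 0 to 71.02 CPM in the low, with a median of 0 in both.

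Markers of other cell types are given for what the sort could have let through. Blood, endothelial, fibroblast and pericyte markers were low in the typical cell of both tertiles, while a bone marker was abundant. Summed over 6 blood markers, including Ptprc (CD45) and Lyz2, cells ran from 0 to 79.1 CPM in the high tertile and from 0 to 1911 CPM in the low, with medians of 13.99 and 11.8 CPM; Ptprc had 5 or more counts in 0 high cells and 1 low cell. Summed over 6 endothelial markers, the ranges were 0 to 447 and 0 to 229 CPM with medians of 0, and Cdh5 had no count in the high tertile. Erythroid markers reached 2057 CPM in the high and 7968 CPM in the low tertile, with medians of 27.3 and 7.80 CPM, and Alas2 was at 0 in both. Fibroblast and pericyte markers had medians between 0 and 1.18 CPM. The osteoblast markers were carried by bone sialoprotein mRNA (Ibsp), with medians of 7473 and 8620 CPM, while osteocalcin (Bglap) was at 0 in both tertiles. The part of these cells in the differences below was not tested.

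Across all genes the tertiles differed little more than by scattered single genes. A gene was compared when it reached 20 CPM and a count in 20% of cells in 1 of the tertiles, which 6303 genes did, the 4 scoring genes aside. It was called when the higher tertile passed those minimums, the summed levels differed by more than 1.5-fold, and all 4 sets and the mean of log2(CPM + 1) per cell had the same sign. By this rule 219 genes were higher in the high tertile, 3.47% of those compared, and 258 were lower, 4.09%; 1526 (24.2%) passed the fold alone. With 1 set left out, so that 3 sets have to share a sign, between 398 and 565 genes were higher and between 407 and 539 lower. The rank correlation of the log2 ratios across genes, which are not independent, ran from 0.006 (N2 with P1) to 0.05 (N1 with P2) for pairs of sets.

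Pparg and Cebpa together made up 92.9% of the difference in mean score. How many calls another score shares follows from that split, so the shares below are a description only. A score of Pparg and Cebpa alone, an alternative chosen after seeing the data, gave 256 higher and 255 lower genes, which held 73.1% and 65.9% of the calls of the 4-gene score. A score of Adipoq and Lpl alone gave 231 and 240, which held 4.57% and 6.20% of them.

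The genes that led by the mean of the 4 set ratios were mostly of low level and found in a minority of cells. Nckipsd, an adaptor for actin regulators, had a count in 15 high and 9 low cells and reached 188.2 CPM in the highest high cell; its summed levels were 21.1 and 3.798 CPM and its mean set ratio 3.62 ± 1.40 (log2, SD, n = 4 sets). Dolk, the dolichol kinase of protein glycosylation, was at 41.4 against 8.04 CPM (mean set ratio 3.37 ± 2.25). Pik3r4, a regulatory subunit of the class III phosphoinositide 3-kinase of autophagy, was at 60.7 against 13.04 CPM, with counts in 27 and 12 cells. The other 12 of the first 15 were Commd10, Ccne1, Zdhhc3, Rtf2, Best1, Xrcc6, Cpeb3, Bach1, Ppif, Smo, Cyp39a1 and Upf3a. On the lower side Ints8, a subunit of the Integrator complex, was at 1.65 against 28.97 CPM (−3.94 ± 1.34), with counts in 3 high and 12 low cells, and Dip2b at 1.19 against 23.2 CPM (−3.71 ± 2.25). Also among the first 15 were Gtpbp3, Map1a, Flvcr2, Actr8, Sik2, Pura, Micu2, Ccnyl1, Maml3, Gatad2b, Mttp and Stox2. The median level of each of Nckipsd, Dolk, Pik3r4, Ints8 and Dip2b was 0 in both tertiles. Their ratios thus rest on the minority of cells that gave a count and on the level in those cells. Dip2b had a count in 12.3% of high and 26.3% of low cells, a smaller difference than that of its summed levels.

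Among genes at 100 CPM or more in 1 of the tertiles, a level chosen after values were seen, 29 were higher and 41 lower of 1662 compared. The highest ratio among them was that of Gvin1, a large interferon-inducible GTPase gene with close paralogs whose counts are therefore uncertain, at 116.2 against 21.5 CPM (log2 2.38). Next came Cybb, a subunit of the NADPH oxidase (275 against 69.9 CPM, log2 1.96). Its medians were only 9.85 and 4.88 CPM, with a highest cell of 1542 CPM in the high tertile. Then came the matrix genes Col3a1 and Lum. Col3a1 (chromosome 1, 45311538 to 45349706), which encodes the type III collagen chain, ran from 0 to 3472 CPM with a median of 150.7 in the high tertile and from 0 to 1755 CPM with a median of 5.79 in the low; summed, it stood at 477 against 141.7 CPM, a log2 ratio of 1.75, and 2.00 ± 0.73 over the sets. Lum (chromosome 10, 97565128 to 97572703), the collagen-binding proteoglycan lumican, ran from 0 to 3755 CPM (median 165.3) in the high tertile and from 0 to 3754 CPM (median 20.3) in the low, with a log2 ratio of 1.43 and set ratios of 1.26 ± 0.85. Both genes had a count in equal numbers of cells in the tertiles, 51 for Col3a1 and 54 for Lum. Any count suffices for this, so the ratios reflect levels among these cells, not all of which need differ. As a mean of the CPM of single cells, the log2 ratio was 1.70 for Col3a1 but 0.73 for Lum. The Lum ratio in P2 was 0.16. The matrix protein genes Spon1 (551 against 240 CPM) and Thbs1 (1634 against 823.9 CPM) were also higher.

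Genes of signalling and inflammation were among the others. Rgs16, a brake on G protein signalling, ran from 0 to 2429 CPM (median 42.4) in the high tertile and from 0 to 1110 CPM (median 3.65) in the low, with a log2 ratio of 1.33. Tnfaip6, a hyaluronan-binding protein induced by inflammation, was at 110.3 against 46.1 CPM (log2 1.24); 1 cell held 32.1% of the high tertile's counts, and with Pparg left out of the score the ratio was −0.00033. Cfb, the complement factor B gene, was at 755 against 492 CPM (log2 0.62, set ratios 0.75 ± 0.27). Lower in the high tertile were Igfbp3, which binds insulin-like growth factors (medians 440 and 1158 CPM; log2 −0.63), Cish, a feedback inhibitor of STAT5 signalling (medians 90.99 and 150.04 CPM; log2 −0.70), Timp3, an inhibitor of matrix proteases (summed 603 against 1092 CPM; log2 −0.86), the oestrogen receptor gene Esr1 (123.5 against 226 CPM) and Ncam1 (69.5 against 162.7 CPM; medians 3.36 and 90.9 CPM). In each of these genes the ranges of the tertiles overlapped, and for Timp3 1 cell held 24.6% of the counts of the high tertile and another 28.1% of those of the low.

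**Figure D2:**
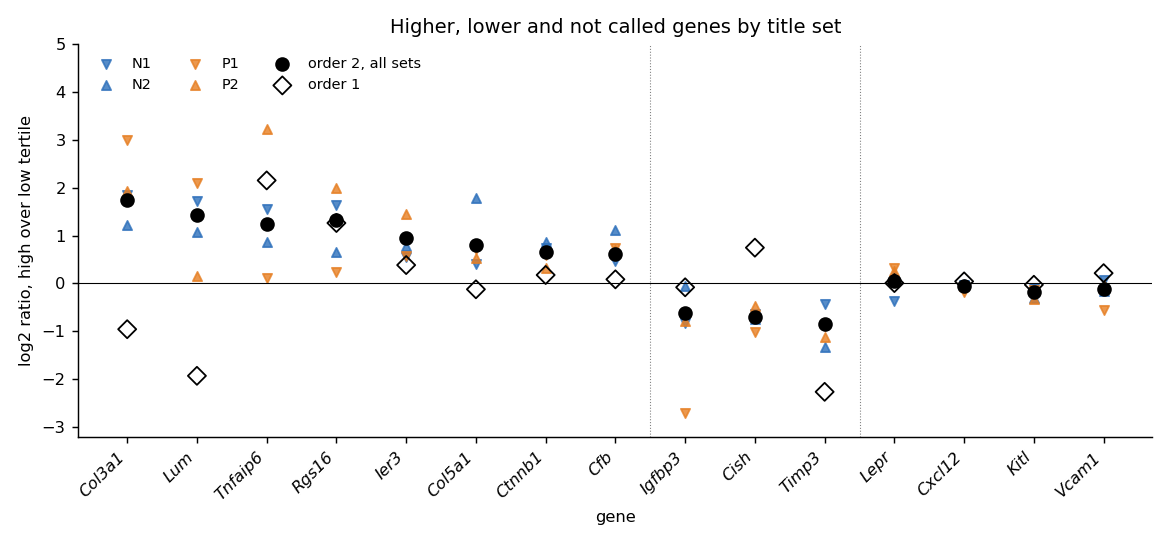
Log2 ratio of the high over the low tertile (y axis) for 8 genes called higher, 3 called lower and 4 stroma markers that were not called (x axis), for each title set (triangles), all sets of order 2 (filled circles) and the cells of order 1 (diamonds). Tnfaip6 (2.15) and Rgs16 (1.26) are also above 0 in order 1, while Col3a1 (−0.96) and Lum (−1.93) are of opposite sign there.

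The adipogenic gene lists leaned slightly upward, with few calls. In 5 lists (uptake of lipoproteins and fatty acids, lipid droplets and lipolysis, fatty acid and triglyceride synthesis, adipogenic regulators, adipocyte products), 65 genes (55.6% of those listed) were abundant enough to be compared. Higher were 5 of the 65 (7.69%, against 3.47% of all genes) and lower 2 (3.08%, against 4.09%). The median log2 ratio was 0.17, with 47 of 65 above 0, against a median of −0.05 and 45.1% above 0 for all genes compared. The median was −0.11 in N1 and 0.23, 0.24 and 0.41 in N2, P1 and P2. The 5 higher genes were Pnpla2, the first lipase of triglyceride breakdown (32.1 against 12.96 CPM), Dgat1, the last enzyme of triglyceride synthesis (26.4 against 9.22 CPM), Srebf1, a regulator of lipid synthesis (62.01 against 30.6 CPM), the adiponectin receptor gene Adipor2 (40.9 against 16.2 CPM) and Klf5, a factor that acts before Pparg in adipogenesis (30.99 against 19.9 CPM). The 2 lower genes were Cebpg, a C/EBP family member that can dampen the others (16.2 against 31.4 CPM), and Zfp423, a factor of preadipocyte commitment (22.8 against 36.5 CPM), whose log2 ratio turned to 0.041 without N2.

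These called genes were of low level, and the abundant adipocyte products were not called. Haptoglobin mRNA (Hp) had medians of 4717 and 2612 CPM and set ratios of 0.48, 0.75, 0.26 and 0.83, with a summed log2 ratio of 0.57 that lies just under the 1.5-fold limit. Angptl4, a secreted inhibitor of lipoprotein lipase, stood at 772 against 470 CPM, with set ratios of 1.12, 0.60, −0.32 and 0.71. Apoe (6589 against 5912 CPM) and angiotensinogen (Agt, 1773 against 1575 CPM) differed by 0.16 and 0.17 on the log2 scale. Cebpd and Cebpb, which act ahead of Pparg and Cebpa, gave log2 ratios of 0.10 and −0.25, and neither had 1 sign in all sets. Among the 24 adipogenic regulators compared, Ebf1, a factor that maintains marrow stroma, was at 394 against 383 CPM; the list's median was 0.11 on summed counts over all sets but between −0.14 and −0.02 within each set.

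Osteogenic genes were mostly not called. Of 18 compared, 0 were higher and 2 lower (all genes 3.47% and 4.09%), Col11a1 (6.54 against 23.9 CPM) and the growth factor receptor gene Fgfr3 (52.3 against 87.1 CPM), and the median log2 ratio was −0.08. In the cells of order 1, described below, both were called in the opposite direction (log2 1.12 and 1.32). Runx2, the first factor of the osteoblast lineage, had medians of 85.6 and 96.9985 CPM. Alpl, alkaline phosphatase, had a count in 32 high and 36 low cells, and Sp7, which acts after Runx2, in 12 and 12. Col1a1 was at 386 against 423 CPM, with set ratios of 1.33, −1.22, 1.32 and −1.30, so the sets gave opposite signs.

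Genes of protein synthesis stood slightly and broadly lower in the high tertile. Of 82 ribosomal protein genes compared, 74 had a log2 ratio below 0, 24 of them in all 4 sets. Of all 6303 genes compared, 45.1% were above 0 and 539 were below 0 in all 4 sets. The ribosomal median was −0.25, against −0.05 for all genes. The ribosomal medians were −0.34, −0.15, −0.27 and −0.27 in N1, N2, P1 and P2. By the size rule 0 were higher and 2, Rpl39l and Rpl7l1, lower (all genes 3.47% and 4.09%). As a share of a cell's counts, these genes ran from 0.876 to 2.28% with a median of 1.41% in the high tertile and from 0.836 to 2.59% with a median of 1.69% in the low; the median was lower in the high tertile in each set. The nuclear-encoded respiratory chain list had 22 of 26 genes below 0, 4 above 0 and a median of −0.19. Ndufb9 alone was called, as lower (43.1 against 70.96 CPM), where 4.09% of all genes were lower. The high tertile also had more counts and more genes per cell (above); with tertiles drawn within 3 strata of total count the ribosomal median was −0.21, and in cells thinned to 150000 counts −0.28. With a score of Adipoq and Lpl alone it was 0.04.

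**Figure D3:**
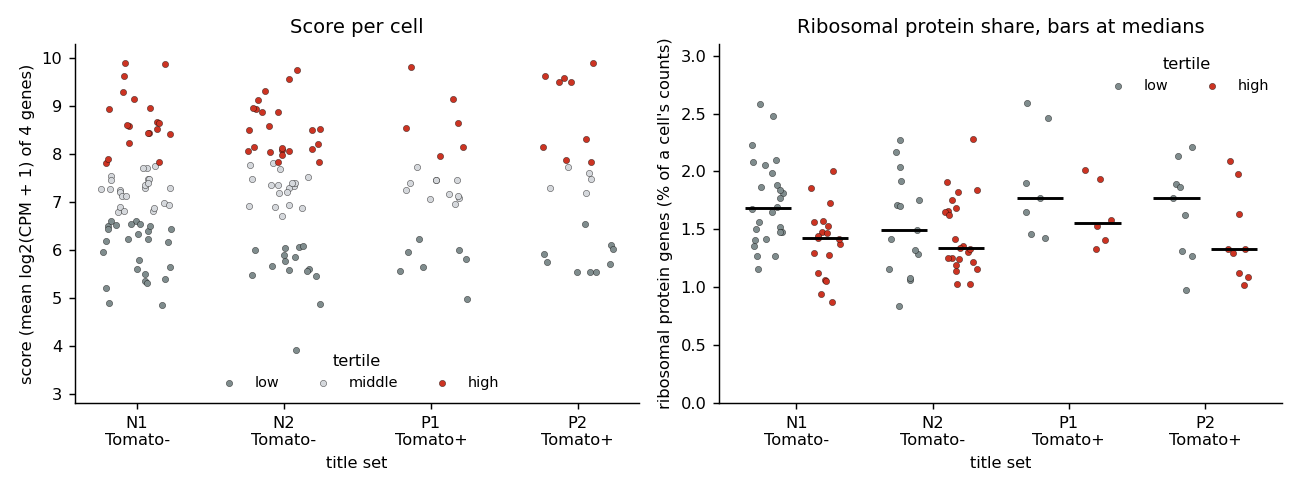
Left, the score of each Lepr+ cell of order 2 by title set, coloured by tertile; right, the share of each cell's counts in ribosomal protein genes, for low (grey) and high (red) cells of each set, with bars at medians. Every set holds cells of all tertiles, and the high tertile's median share is the lower one in each set (1.41% against 1.69% over all).

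Heat shock genes gave ratios that differed in sign between sets. Heat shock and chaperone genes had a median log2 ratio of 0.49 over 15 genes, with 0 called (all genes 3.47% higher and 4.09% lower). Their medians were 1.10, 0.23, −0.41 and 0.42 in N1, N2, P1 and P2. Hspb1, a small heat shock protein, stood at 1850 against 730 CPM, with a highest cell of 43001 CPM and set ratios of 3.28, 1.15, −2.19 and −1.24. Iron and haem genes had a median of 0.50 over 12 genes with 0 called. Their medians were 0.56, 0.58, 0.005 and 0.38 in N1, N2, P1 and P2, and 0.07 in order 1. The iron carrier transferrin (Trf) had medians of 4810 and 3322 CPM and set ratios of 0.64, 0.69, 0.11 and 0.35. Of 15 collagen genes, Col3a1 and Col5a1 (125.2 against 71.7 CPM) were higher and 0 lower (all genes 3.47% and 4.09%), and the abundant Col1a2 stood at 2212 against 1879 CPM with ratios from 0.06 to 0.32 in the sets. Fatty acid oxidation had 0 higher and 2 lower of 14 (all genes 3.47% and 4.09%), the carnitine palmitoyltransferases Cpt1a (28.3 against 55.3 CPM) and Cpt1c (13.9 against 28.97 CPM).

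**Figure D4:**
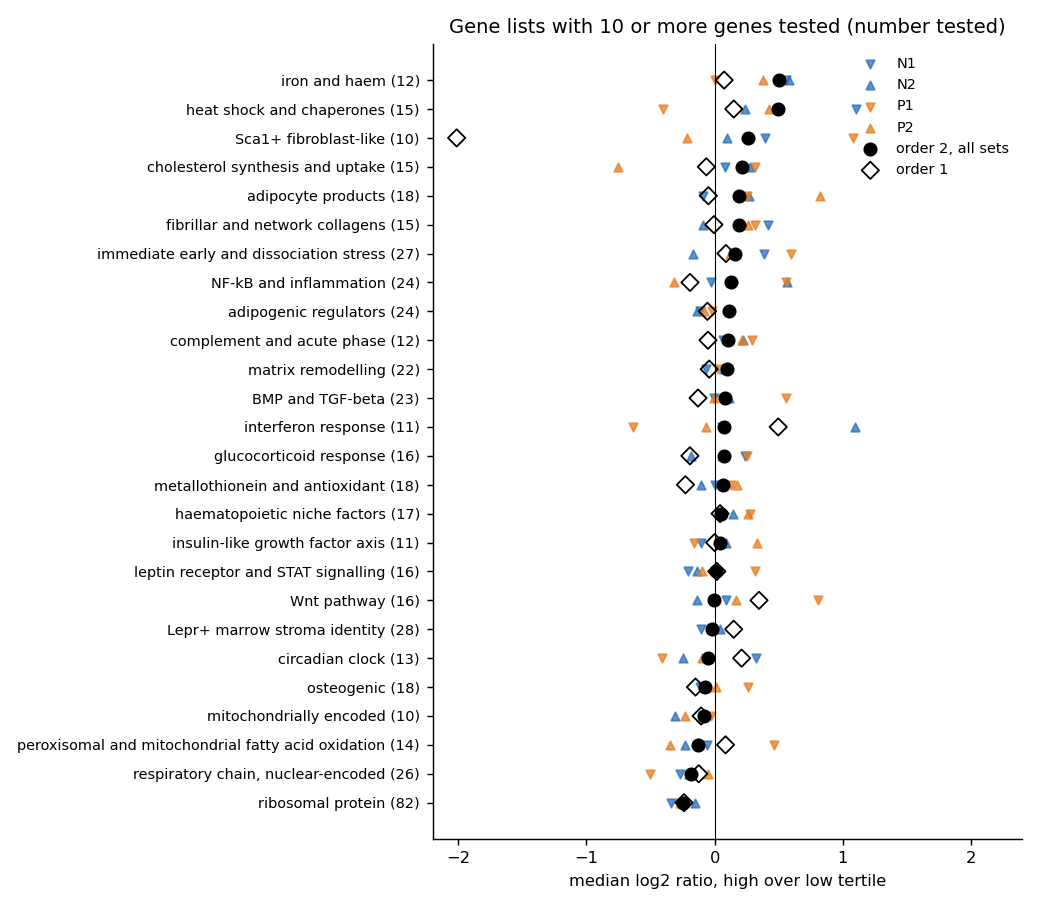
Median log2 ratio of the high over the low tertile (x axis) for each gene list with 10 or more genes compared (y axis, number compared in brackets), for each title set (triangles), all of order 2 (filled circles) and order 1 (diamonds). Ribosomal protein genes lie below 0 in all of them (−0.25 in order 2, −0.24 in order 1), while most other lists straddle 0.

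The cells of order 1 show which of these differences recur in cells that the rule did not use. The same limits kept 74.4% of its cells, and the top and bottom 49 by the same score were compared. Adipoq and Lpl took a larger part in the split: medians were 3502 and 1898 CPM for Adipoq and 1820 and 475 CPM for Lpl in the high and low tertiles, and 208 and 0 CPM for Pparg and 69.2 and 0 CPM for Cebpa. Depth was alike, with medians of 807443 and 810641 counts, but genes with a count numbered 4614 and 4079. Of 6837 genes compared, 877 (12.8%) were higher and 392 (5.73%) lower, with 3 sets in place of 4.

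The genes called in order 2 did not recur as a group. Of the 219 higher genes, 82.6% could be compared in order 1 and 85 of these (46.96%) were above 0 there, against 51.3% of all 5628 genes compared in both orders. Called higher in both were 25 genes, 13.8% of those that could be compared, 11.4% of the order 2 list and 2.85% of the order 1 list. Another 11 were called lower in order 1. Among all genes compared in order 1, 12.8% were called higher and 5.73% lower. Of the 258 lower genes, 203 could be compared and 87 of these (42.9%) were below 0, against 48.7% of all. Called lower again were 9 (4.43% of the 203), 3.49% of the order 2 list and 2.30% of the order 1 list. In order 1, 34 were called higher. The correlation of the log2 ratios across all 5628 genes, which are not independent, was −0.02 (Pearson).

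**Figure D5:**
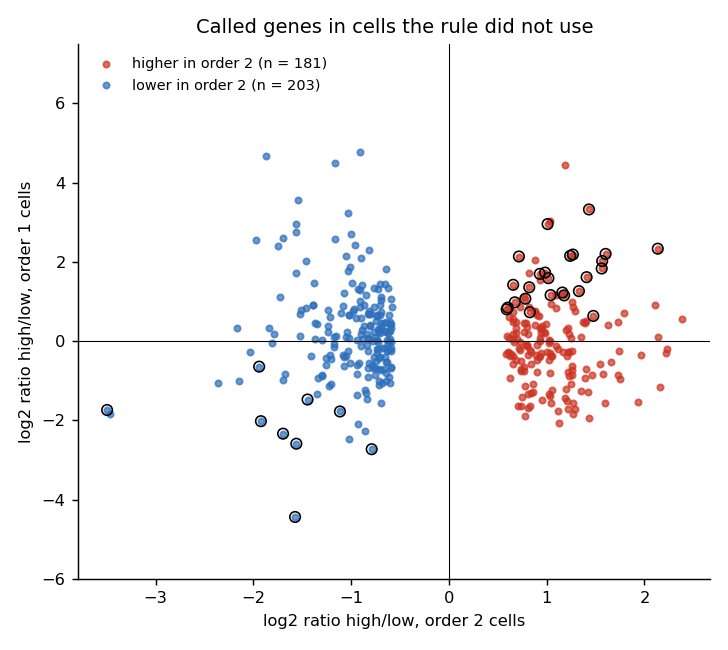
Log2 ratio of the high over the low tertile in order 2 (x axis) and order 1 (y axis) for the genes called higher and the 203 called lower in order 2 that could be compared in order 1; rings mark the 25 and 9 called in the same direction in both. Of the genes called higher in order 2, 46.96% lie above 0 on the y axis, and of those called lower, 42.9% lie below it. Ringed genes are 13.8% and 4.43% of those shown, against 12.8% called higher and 5.73% lower among all genes compared in order 1.

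The genes called in the same direction in both orders, at shares near those of all genes in order 1, included few of the adipogenic program. Tnfaip6 was at 96.7 against 20.998 CPM in order 1 (log2 2.15) and Rgs16 at 174.1 against 72.02 CPM (1.26). Tlr2, a receptor for bacterial lipoproteins, was at 58.5 against 21.05 CPM in order 2 (log2 1.43) and 60.8 against 5.18 CPM in order 1 (3.32). Serpina12, which encodes the adipokine vaspin, was at 62.2 against 30.2 CPM (1.02) and 69.2 against 22.4 CPM (1.59), and the zinc transporter gene Slc30a7 at 107.5 against 51.8 CPM (1.04) and 89.1 against 39.3 CPM (1.16). Pik3r4 (log2 2.14 and 2.33) and Ints8 (−3.50 and −1.74) were the genes of the first 15 on either side called again, together with Actr8 (−1.94 and −0.64). Not repeated were Col3a1, at 113.996 against 222 CPM in order 1, and Lum, at 261 against 998 CPM; of the lipid genes, Pnpla2 (−1.61), Dgat1 (−1.29) and Klf5 (−1.69) were of opposite sign and Adipor2 (0.77) and Srebf1 (0.14) of the same sign. Cebpg (1.29) and Zfp423 (1.44), lower in order 2, were called higher in order 1. Of others named only for a level of 100 CPM or more, Cybb (−0.35) and Esr1 (0.38) were of opposite sign in order 1. Gvin1 (0.56), Spon1 (0.29), Thbs1 (0.22) and Ncam1 (−0.36) were of the same sign without being called. Transferrin (0.61), Agt (0.35) and Angptl4 (0.50) stood above 0 in both orders without being called, while Hp (−0.07) and Apoe (−0.05) stood just below 0 in order 1. Of 19 adipocyte products compared in order 1, 9 were above 0 and 10 below, with a median of −0.05.

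The list medians in order 1 were −0.01 for the 5 adipogenic lists, 0.15 for Lepr+ stroma identity, −0.15 for osteogenic genes and −0.12 for the respiratory chain. Ribosomal protein genes again had a median of −0.24, with 58 of 80 below 0. The per-cell ribosomal share there had medians of 0.996% in the high and 0.991% in the low tertile, so the typical cell of the 2 tertiles was alike; by set the medians were 0.827 and 1.25% in N2, 0.970 and 0.928% in P1 and 1.42 and 1.44% in P3. In N2 of order 1 the low cells had a median of 354497 counts against 752770 in the high cells, and the part of depth in that difference was not tested.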

How the data were processed

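Per the file headers and values, the authors deposited 1 table of 25000 genes by 388 cells of expected counts, which are estimated and may hold fractions; 4.91% of the values above 0 were not whole, and all were rounded here. GRCm38 is the build, and StringTie 1.3.3b, HTSeq 0.6.0 and HISAT are tools, listed without roles in the submitters' processing notes. RNA of each cell was amplified before library preparation, per the labels' protocols, so rare transcripts may be overcounted in single cells. As strand is not stated, a gene and an antisense partner that overlaps it may share reads, as may paralogs such as Rpl7l1.

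Columns were matched by name to a group and title set, none to a single cell's title; 0 columns were unused. The meaning of orders and sets is likewise not stated. Counts were summed over the cells of each tertile and scaled to CPM, and each gene was compared by log2[(CPM + 1) in the high / (CPM + 1) in the low tertile], which understates the change of low genes. Comparison used Python 3.11.15, NumPy 2.4.6, pandas 2.3.3 and SciPy 1.17.1, and the steps were tested on simulated counts. The design set down first speaks of all cells; the rule covers order 2, which is used here, with order 1 apart. Members and the 39 gene lists (884 entries, 7 genes absent by symbol) were chosen with earlier results of these data known. Named genes are the first 15 called in each direction by the mean of the set ratios, up to 3 called members of each list, 16 fixed genes, and others marked as chosen after values were seen, without mitochondrial, ribosomal protein and predicted genes; 2 genes that the rule names are not reported here. Fixed marker genes were used to check cell types; no doublet caller was run. For coordinates, 24685 symbols were found in GENCODE M21 (GRCm38). Alternatives covered cell weights, depth, thresholds, score, filters, sets, orders and Tomato groups.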

Additional observations from a re-analysis of the deposited data

Results flagged for a closer look

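Lists whose median log2 ratio (high over low tertile) had one sign in both Tomato− sets and the other in both Tomato+ sets were looked for. Of the 39 gene lists, those with at least 5 genes compared were searched, and 3 were found. The fixed genes abundant enough to be compared were searched in the same way, and none was found. The difference between Tomato groups was not tested for any of them. For fatty acid and triglyceride synthesis the medians were 0.17 and 0.63 in N1 and N2 and −0.17 and −0.16 in P1 and P2, a difference of the means of −0.57 (Tomato+ minus Tomato−) over 7 genes. For osteogenic genes they were −0.12 and −0.06 against 0.26 and 0.01, a difference of 0.23 over 18 genes. For the interferon response they were 0.06 and 1.10 against −0.64 and −0.06, a difference of −0.93 over 11 genes. P1 gave 6 high and 7 low cells and P2 9 and 9, so the Tomato+ medians rest on few cells.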

How the results depend on the processing

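No paired analysis was possible because no test was made and the columns carry no replicate number, only set names; tertiles drawn within each title set and averaged gave 308 higher and 306 lower genes. Counts of genes higher and lower moved by over 1.5 times under some settings: higher 417 with the score without Cebpa, 402 (lower 413) with ranks, 414 with no filter on low genes, 70 and, rounded, 1.1e+02 (43.02% of the 258) at a minimum of 50 CPM, 29 and 41 at a minimum of 100 CPM (added after seeing the data), 1206 and 1218 in Tomato+ cells only, 708 and 652 in Tomato− cells only, and 877 and 392 in order 1. Leaving out 1 title set gave 398 to 565 higher and 407 to 539 lower. These last 4 kinds of setting ask for the same sign in fewer sets. So does the score without Cebpa, which used 3 sets because P1 had fewer than 5 cells in a tertile. Thinning to 150000 counts kept 57.5% of the 219 higher and 58.1% of the 258 lower genes, leaving out each gene's highest cell 55.3% and 51.6%, and tertiles within strata of depth 51.1% and 58.5%.

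The median of the 5 adipogenic lists stayed within its spread over sets in all settings run. That spread is wide, as the sets ran from −0.11 in N1 to 0.41 in P2, and the median of −0.01 in order 1 also falls within it. The ribosomal protein median was −0.12 without Pparg, −0.15 without Cebpa, −0.16 from ranks and 0.042 with Adipoq and Lpl alone. The Lepr+ stroma median was 0.051 in the outer quartiles, 0.15 in order 1, 0.070 in Tomato+ cells and 0.075 with Adipoq and Lpl alone. The adipogenic regulators moved from 0.11 to 0.048 within depth strata, −0.074 in the outer quartiles, 0.039 with a split at the median, 0.024 without Adipoq, −0.0043 without Pparg, −0.046 without Cebpa, −0.073 from ranks, 0.041 at 50 and 100 CPM, −0.056 in order 1, 0.030 in Tomato+ cells, 0.041 in Tomato− cells, 0.036 without cells with Ptprc or Pecam1 counts, and −0.031 to 0.13 with a set left out. Osteogenic genes were at 0.14 and heat shock genes at −0.14 in Tomato+ cells. With Adipoq and Lpl alone, heat shock genes were at −0.25, collagens at −0.095 and the respiratory chain at 0.052. Split by the other 3 genes, Lpl was at 0.73 in order 1. Tomato+ cells were 26.3% of the high tertile, 12.2% to 44.7% with a set left out and 71.4% in order 1. The ratio of median total counts, 1.19, was 0.996 in order 1, 0.984 without Pparg and 1 by construction after thinning.

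Of the 59 named genes called, 36 had the opposite sign in order 1: Nckipsd −2.01, Dolk −0.19, Commd10 −1.17, Zdhhc3 −0.29, Xrcc6 −0.52, Ppif −0.40, Smo −0.029, Cyp39a1 −0.26, Upf3a −0.81, Gtpbp3 1.02, Map1a 0.75, Flvcr2 2.85, Sik2 0.45, Micu2 0.12, Ccnyl1 0.71, Maml3 1.38, Pnpla2 −1.61, Dgat1 −1.29, Klf5 −1.69, Cebpg 1.29, Zfp423 1.44, Il15 −0.36, Col11a1 1.12, Fgfr3 1.32, Lum −1.93, Sfrp1 −0.51, Cish 0.75, Col3a1 −0.96, Col5a1 −0.12, Mmp9 2.07, Adam12 −0.23, Msmo1 4.50, Cpt1c 2.71, Ndufb9 0.30, Sod3 −1.22 and Cry1 0.47. With Adipoq and Lpl alone 23 did: Dolk −0.45, Commd10 −0.71, Rtf2 −0.21, Best1 −0.034, Bach1 −0.26, Ppif −0.65, Cyp39a1 −0.091, Ints8 2.34, Dip2b 1.06, Flvcr2 0.41, Pura 1.13, Micu2 0.12, Stox2 0.23, Dgat1 −0.57, Zfp423 1.12, Il15 −0.43, Col11a1 0.80, Fgfr3 0.62, Lum −0.81, Tnfaip6 −1.35, Msmo1 1.06, Cpt1c 0.050 and Ndufb9 0.047. The others were Dip2b 0.45, Fgfr3 0.015 and Tnfaip6 −0.00033 without Pparg, Zfp423 0.28, Col11a1 0.088, Ctnnb1 −0.29 and Msmo1 0.64 without Cebpa, Il15 −0.094 from ranks, Zfp423 0.041 without N2 (its range with 1 set left out was −0.83 to 0.041) and 0.051 in Tomato+ cells, and Smo −0.023 and Klf5 −0.056 in Tomato− cells. Genes named only for a level of 100 CPM or more are not among the 59. The cause was not tested. With 57 cells a tertile and amplified reads, a low gene's ratio rests on few cells.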

Other observations

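Other lists held a few called genes each, against 3.47% higher and 4.09% lower among all genes compared. Of 16 Wnt pathway genes compared, 3 were higher in the high tertile and 0 lower, with a list median of −0.01: the receptor gene Fzd4 (69.5 against 33.5 CPM), the secreted antagonist gene Sfrp1 (62.2 against 36.95 CPM) and Ctnnb1, which encodes β-catenin (244 against 154.3 CPM). The Fzd4 set ratios were 0.28, 0.03, 0.60 and 6.30, so P2 set its size. In order 1 Fzd4 stood at 84.04 against 9.38 CPM without being called, since its sets or its mean per cell did not share a sign. Of 17 niche factors 1 was higher, the lymphoid cytokine gene Il15 (31.99 against 19.9 CPM), and 0 lower. Of 18 metallothionein and antioxidant genes 1 was higher, Sod3, the extracellular superoxide dismutase (78.7 against 33.8 CPM, with counts in 61.4 and 29.8% of cells), and of 13 clock genes 1 was lower, the repressor gene Cry1 (33.5 against 74.1 CPM). The early response gene Ier3 ran from 3.38 to 10859 CPM (median 638) in the high tertile and from 2.87 to 5018 CPM (median 543) in the low, with a log2 ratio of 0.96 and 0.38 in order 1.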
